A study of Mus musculus with 13 samples.

Results

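The comparison described here set 4 antigen-presenting populations of the mouse spleen against 2 cytotoxic lymphocyte populations. The antigen-presenting side was the mean of plasmacytoid dendritic cells (pDCs), CD8α conventional dendritic cells (CD8α cDCs), CD11b cDCs and B lymphocytes, and the cytotoxic side was the mean of natural killer (NK) cells and CD8 T lymphocytes. All 13 arrays of the study entered it, 9 antigen-presenting and 4 cytotoxic: 3 arrays of B lymphocytes and 2 arrays of each other population. The cells came from wild-type C57BL/6 mice without treatment and were sorted from collagenase-digested spleens by surface markers: cDCs as lineage-negative CD11c high cells that carried CD8α or CD11b, pDCs as lineage-negative CD11c+ cells high for the 120G8 antigen and NK cells as NK1.1+ TCRβ- cells. RNA was pooled from 10 to 15 mice for an array of DCs, from 6 to 10 mice for an array of NK cells and from 3 and 2 mice for B lymphocyte replicates 1 and 2. B lymphocyte replicate 3 and the CD8 T lymphocyte arrays held RNA of a single mouse each. The labels describe B lymphocyte replicates 2 and 3 as follicular and replicate 1 simply as B lymphocytes. Age is labelled as 6-8 weeks for CD8α cDC replicate 1 and both CD8 T lymphocyte arrays and as 6 weeks for B lymphocyte replicates 2 and 3.

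Antigen-presenting cells take up material, cut it in endosomes and lysosomes, and load the peptides on MHC class II molecules for CD4 T cells. They also carry innate sensors, such as the Toll-like receptors, and costimulatory ligands. NK cells and CD8 T lymphocytes kill target cells with perforin and granzymes released from granules, and they signal through kinases such as Zap70 that bind phosphorylated ITAM motifs. MHC class II genes are the textbook difference between these sides, so they are given only as a count and the genes beyond them are described.

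Expression is given as the signal of the deposited MAS5 values, an intensity scaled to a target of 100 on each array. Medians per array ran from 13.5 to 20.8, and the share of probe sets that reached 50 from 29.1 to 34.3%. Signals below 20 were set to 20 before log2 transformation, so a fold against cells below 20 on all arrays is a lower bound and is written as "at least". Replicates of a population correlated at 0.934 to 0.987 across genes, and the lowest value was among the B lymphocytes. Summed signals of 11 B cell markers were 24779 to 38721 in B lymphocytes and at most 2704 in the other populations, 8 NK cell markers summed to 44845 to 47700 in NK cells and to at most 4257 elsewhere, and 11 T cell markers summed to 18476 to 20849 in CD8 T lymphocytes. The 9 pDC markers summed to 29940 to 32472 in pDCs and to at most 6453 elsewhere. The 8 cDC markers parted the populations less widely, with 7892 to 10104 in both cDC subsets, against 4510 to 4639 in pDCs, up to 5185 in B lymphocytes and up to 3019 in NK cells. The highest other sum of T cell markers was 3166, in CD8α cDCs, where 9 of the 11 markers were below 20. That list holds Cd8a, and CD8α was a marker by which these cells were sorted. The ratio of 3′ over 5′ GAPDH controls was 11.2 and 23.9 for NK cells, against 3.46 to 6.30 elsewhere. The paper checked RNA quality with a Bioanalyser and amplified the cRNA in successive rounds. Whether the higher ratio came from RNA integrity or from amplification was not tested. The 5 scan days fell into 3 periods, which held the DC arrays, the B lymphocyte and NK cell arrays, and the CD8 T lymphocyte arrays. Of the 5 arrays with a labelled sex, 3 carried sex-linked transcripts against their label: B lymphocyte replicate 2 and both CD8 T lymphocyte arrays. All 6 DC arrays but only 1 of the 7 lymphocyte arrays, B lymphocyte replicate 2, carried Xist. On the 4 cytotoxic arrays Xist was at most 0.963, and the Y-linked Eif2s3y was 346 to 968. Sex thus ran with DCs against cytotoxic populations, and its part in the differences between the sides was not tested. Xist was not described further.

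Of 9391 genes tested, 2717 (28.9%) were higher in the antigen-presenting populations and 2609 (27.8%) were lower, by limma with Benjamini-Hochberg adjustment over all genes. Of these, 1104 and 1001 differed at least 2-fold. A called mean difference often did not mean that all populations of a side moved together. Among the 2717 higher genes, the 4 antigen-presenting means all exceeded both cytotoxic means in 965, whereas B lymphocytes alone failed to do so in 464, pDCs alone in 234, CD8α cDCs alone in 136 and CD11b cDCs alone in 93. Among the 2609 lower genes, all 4 antigen-presenting means lay below both cytotoxic means in 1033, and B lymphocytes were the lone exception in 589. B lymphocytes were thus the most frequent lone exception in either direction.

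A stricter definition kept genes whose lowest mean on one side exceeded the highest mean on the other side by at least 0.4 (log2), with each of the 8 pairwise differences past limma's test. By this definition 124 genes (1.32% of those tested) were shared by the 4 antigen-presenting populations and 147 genes (1.57%) by both cytotoxic populations. In both sets no antigen-presenting array overlapped a cytotoxic array, which the definition nearly fixes, against 4.28% of all genes with every antigen-presenting array above and 5.37% with every one below. The gap between the closest populations had a median of 1.88 (log2) in the antigen-presenting set and 1.71 in the cytotoxic set, and it exceeded 4 in 13 and 18 genes. The test, and not the margin, set the border: Nadk (gap 0.70), Eif1ad (0.67) and Mtmr14 (0.67) lay just inside the antigen-presenting set, and Dennd5a (gap 0.94, adjusted p = 0.0506), Msmo1 (1.12, adjusted p = 0.0509) and Nfkbie (0.86, adjusted p = 0.0564) lay just outside, by the same limma contrasts. The antigen-presenting set had 82 genes without CD8 T lymphocyte replicate 1 and 151 genes without B lymphocyte replicate 1, of which 82 and 118 were among the 124. Without the floor of 20 the cytotoxic set had 43 genes, all among the 147.

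**Figure D1:**
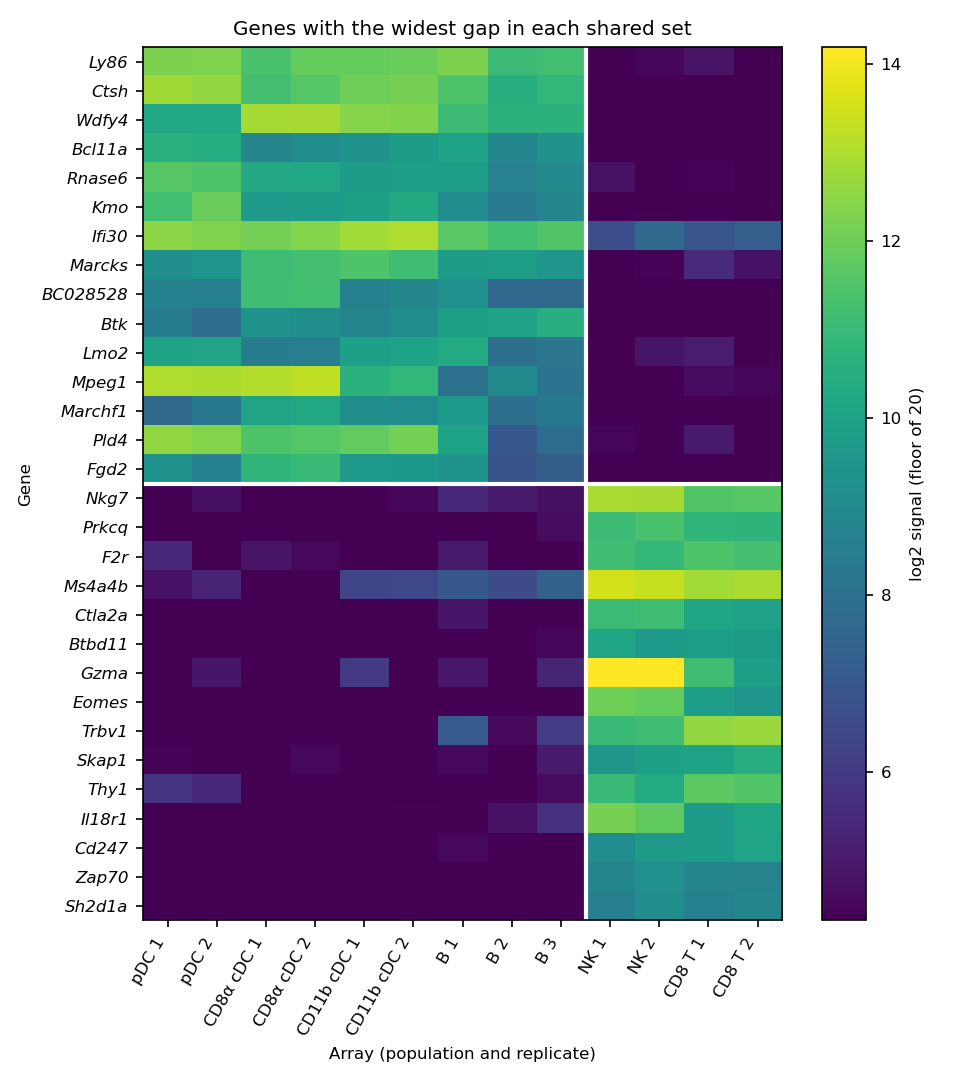
Signal of the 15 genes with the widest gap in the set shared by the antigen-presenting populations, MHC class II left out (upper block), and in the set shared by both cytotoxic populations (lower block). Colour gives log2 signal with a floor of 20, columns are the 13 arrays, and white lines part antigen-presenting from cytotoxic arrays and the sets from each other. The gaps ran from 3.53 (Fgd2) to 6.90 (Ly86) in the upper block and from 4.44 (Sh2d1a) to 6.50 (Nkg7) in the lower one.

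Of the 124 genes shared by the antigen-presenting populations, 8 belonged to MHC class II and its loading and 116 lay beyond it. All 10 measured members of MHC class II and its loading were higher. Among all genes tested, 28.9% were higher and 1.32% were in the shared set. By the probe set used for each gene and with the floor of 20, the widest gap between the closest populations was that of Ly86. Ly86 (MD-1) is the secreted partner of the Toll-like receptor homologue Cd180. Its signal was 4868 and 4981 in pDCs, 2659 and 3675 in CD8α cDCs, 3681 and 3910.5 in CD11b cDCs and 4796, 2095 and 2364 in B lymphocytes, against 1.92 and 22.3 in NK cells and 28.9 and 2.51 in CD8 T lymphocytes. The lowest antigen-presenting array thus stood at 2095 and the highest cytotoxic array at 28.9, and the log2 difference was 7.32 with an SE of 0.21 (n = 9 and 4 arrays). Wdfy4, a BEACH domain protein that mouse CD8α cDCs need for cross-presentation of antigen to CD8 T cells, was 1207 and 1162 in pDCs, 7379.7 and 7652 in CD8α cDCs, 5441 and 5130.2 in CD11b cDCs and 2170.0, 1644 and 1635 in B lymphocytes, against below 20 on all 4 cytotoxic arrays. It was highest in CD8α cDCs, but it was not below 1162 on any antigen-presenting array, and its difference was at least 152-fold.

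The sequences upstream of Ly86 and Wdfy4, and of Nkg7 and Prkcq from the cytotoxic set, are shown here because these genes were among those that parted the sides most widely. Each run holds the 250 bases before the annotated start in RefSeq (GRCm38.p6), read on the strand of the gene. Capitals mark matches to any of 8 short motifs that are described with their shares further on. Wdfy4 carried GATTGGC and, overlapping it by its last base, CAGGAAGT. Nkg7 carried both GATTGGC and TCACACCT on the opposite strand, and Ly86 and Prkcq had no match to these letters in the window. The windows were chr13:37345095-37345344, plus strand, for Ly86 and chr14:33185067-33185316, minus strand, for Wdfy4. Those of the cytotoxic genes were chr7:43436888-43437137, plus strand, for Nkg7 and chr2:11172132-11172381, plus strand, for Prkcq.
Ly86: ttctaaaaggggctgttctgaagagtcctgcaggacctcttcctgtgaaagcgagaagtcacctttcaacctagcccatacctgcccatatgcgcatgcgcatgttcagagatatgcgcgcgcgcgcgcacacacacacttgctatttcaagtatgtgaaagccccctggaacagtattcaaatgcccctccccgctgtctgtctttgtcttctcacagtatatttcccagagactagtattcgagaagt
Wdfy4: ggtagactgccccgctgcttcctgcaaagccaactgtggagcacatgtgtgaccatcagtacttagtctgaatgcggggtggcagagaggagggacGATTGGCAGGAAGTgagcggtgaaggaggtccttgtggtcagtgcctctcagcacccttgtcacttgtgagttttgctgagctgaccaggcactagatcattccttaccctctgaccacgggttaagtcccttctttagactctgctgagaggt
Nkg7: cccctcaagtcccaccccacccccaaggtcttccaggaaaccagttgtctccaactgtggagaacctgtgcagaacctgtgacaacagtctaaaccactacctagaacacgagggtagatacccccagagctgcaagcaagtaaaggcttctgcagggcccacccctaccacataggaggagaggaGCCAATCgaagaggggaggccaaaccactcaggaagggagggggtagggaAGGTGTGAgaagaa
Prkcq: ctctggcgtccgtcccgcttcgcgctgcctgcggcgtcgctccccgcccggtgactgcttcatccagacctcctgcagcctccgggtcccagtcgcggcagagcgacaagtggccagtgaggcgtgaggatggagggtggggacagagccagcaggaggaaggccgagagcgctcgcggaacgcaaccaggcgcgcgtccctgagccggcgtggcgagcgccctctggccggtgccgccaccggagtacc

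Some of the shared antigen-presenting genes encode lysosomal and endosomal proteins. Of 17 tested proteases, inhibitors and other lysosomal proteins, 13 were higher in the antigen-presenting populations, 2 were lower and 2 did not pass the test. The shared set held 5 of them, and their median log2 difference was 1.64, against -0.00471 over all genes. Of all genes tested, 28.9% were higher, 27.8% lower and 1.32% in the shared set. Ctsh, the lysosomal aminopeptidase cathepsin H, was 7059 and 6162 in pDCs, 2470.5 and 3087 in CD8α cDCs, 4109 and 4579.9 in CD11b cDCs and 2733, 1456 and 1831 in B lymphocytes, against below 20 on both arrays of NK cells and 20.1 and 3.51 in CD8 T lymphocytes. No cytotoxic array exceeded 20.1, and the antigen-presenting arrays spread 4.85-fold among themselves. Ifi30 (GILT), the thiol reductase that opens disulphide bonds of antigens in lysosomes, was high in the antigen-presenting populations but was also present in the cytotoxic ones. Its signal was 5635 and 5050.0 in pDCs, 4468 and 5282 in CD8α cDCs, 7257 and 8235 in CD11b cDCs and 3243, 2349 and 2954 in B lymphocytes, against 104 and 207 in NK cells and 125 and 159 in CD8 T lymphocytes. Ctsz, a lysosomal carboxypeptidase, was 4628 ± 526 in pDCs, 3012 ± 376 in CD8α cDCs, 4363 ± 84 in CD11b cDCs and 1882 ± 879 in B lymphocytes, against 111 ± 17.2 in NK cells and 441 ± 130.0 in CD8 T lymphocytes (mean ± SD). Lgmn, the asparaginyl endopeptidase legumain, was at least 10.1-fold higher, with cytotoxic arrays all below 20. Ctss, the cysteine protease cathepsin S that trims the invariant chain, completed the shared members of the list.

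Cst3 and Asah1 were higher on average, but B lymphocytes came near to the cytotoxic populations. Cst3, the secreted cathepsin inhibitor cystatin C, was 5607 and 4388 in pDCs, 11526 and 13157 in CD8α cDCs, 6277 and 6559 in CD11b cDCs and 1596, 723 and 819 in B lymphocytes, against 469.8 and 576 in NK cells and 329 and 338 in CD8 T lymphocytes. The 3 B lymphocyte arrays overlapped no cytotoxic array, yet the lowest of them was 1.25-fold above the highest NK cell array. The opposite direction was taken by Ctsd, the aspartic protease cathepsin D. Its signal was 627 and 449.7 in pDCs, 94.2 and 87.1 in CD8α cDCs, 353 and 330.1 in CD11b cDCs and 227, 119.8 and 149 in B lymphocytes, against 2714 and 3026 in NK cells and 1206 and 1391 in CD8 T lymphocytes. Cathepsin D was the 1 lysosomal protease of the list in the set shared by both cytotoxic populations (log2 difference -3.09, SE 0.17, adjusted p = 6.31e-08). Ctse, a related aspartic protease, was also lower on average (-0.66, SE 0.24, adjusted p = 0.0346), but B lymphocytes, at 226, 357 and 381, lay above all cytotoxic arrays, and the probe set of largest variance ran the other way (1.97).

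Other shared genes were in none of the lists of this kind. Mpeg1 (perforin-2), a pore-forming protein of phagosomes, was 8250.2 and 8135 in pDCs, 8569 and 9618 in CD8α cDCs, 1569.8 and 1864 in CD11b cDCs and 258, 522 and 272 in B lymphocytes, against below 20 on both arrays of NK cells and 25.3 and 21.8 in CD8 T lymphocytes. DC arrays were 6.08-fold to 37.2-fold above the lowest B lymphocyte array, and that array was still 10.2-fold above the highest cytotoxic one. Pld4, an endolysosomal exonuclease of single-stranded nucleic acids, was 6002 and 5273 in pDCs, 2865 and 3073 in CD8α cDCs, 3639 and 4433 in CD11b cDCs and 1047, 129.9 and 224 in B lymphocytes, against 22.6 and 8.33 in NK cells and 32.7 and 14.6 in CD8 T lymphocytes. B lymphocyte replicate 1 stood apart here from replicates 2 and 3. Rnase6, a ribonuclease of the RNase A family, had a gap of 4.61, and its lowest antigen-presenting array was 15.2-fold above the highest cytotoxic one. Marchf1, a ubiquitin ligase that removes MHC class II and CD86 from the cell surface, was 214 and 319 in pDCs, 1073 and 1212 in CD8α cDCs, 602 and 549 in CD11b cDCs and 786, 248 and 319 in B lymphocytes, against below 20 on all 4 cytotoxic arrays.

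B lymphocyte replicate 1 was at least 2-fold above both other B lymphocyte arrays in 12 of the 124 shared antigen-presenting genes (9.68%), in 11 of the 147 cytotoxic ones (7.48%) and in 444 of all genes (4.73%). Its summed signal of 13 monocyte, macrophage and neutrophil markers was 1617, against 204 and 584 in the other B lymphocyte arrays. These markers summed to 6631 and 7864 in CD11b cDCs, to 1046 to 1802 in the other DC arrays and to 126 to 438 on the cytotoxic arrays, and 3 to 10 of the 13 were below 20 on each array. Without that replicate, 118 of the 124 genes remained in the set. Replicate 1 also differed in its processing. The chip records gave 100 ng of RNA for replicate 1 and 50 ng for replicates 2 and 3. Replicates 2 and 3 shared a chip lot, and replicate 1 was on another. The part of other cells, RNA amount or chip lot in these differences was not tested. In sorted bulk RNA a smaller share of expressing cells and less RNA per cell cannot be told apart.

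Toll-like receptors and their partners were mostly higher as well. Of 20 tested members, 17 were higher in the antigen-presenting populations, 0 were lower and 3 did not pass (median log2 difference 2.05). All 4 populations shared 6 of them. The shares over all genes were 28.9% higher, 27.8% lower and 1.32% shared. The shared members were accessory molecules and signalling proteins. Beside Ly86 they were its receptor Cd180, the trafficking chaperone Unc93b1, the folding chaperone Cnpy3, the lysosomal transporter Slc15a3 and the transcription factor Irf5. Unc93b1, which brings nucleic acid sensing receptors to endosomes, was 1358 and 788 in pDCs, 874 and 844 in CD8α cDCs, 789.6 and 782 in CD11b cDCs and 997, 564 and 506 in B lymphocytes, against 115 and 128 in NK cells and 45.4 and 31.9 in CD8 T lymphocytes. No antigen-presenting array was below 506, and NK cells were intermediate between these and CD8 T lymphocytes. Irf5, which acts downstream of the receptors, was 485 and 314 in pDCs, 1086 and 1016 in CD8α cDCs, 550.3 and 609 in CD11b cDCs and 457, 302 and 372 in B lymphocytes, against 44.1 and 44.6 in NK cells and 27.7 and 24.1 in CD8 T lymphocytes. The groups did not overlap, and the log2 difference was 4.01.

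Receptors themselves were divided among the antigen-presenting populations. Tlr3, the sensor of double-stranded RNA, was below 20 on both arrays of pDCs, 1762 and 1727 in CD8α cDCs, 137 and 137 in CD11b cDCs and 72.8, 38.7 and 0.85 in B lymphocytes, against below 20 on all 4 cytotoxic arrays. It was highest in CD8α cDCs, and pDCs were as low as the cytotoxic arrays. Tlr2, the sensor of bacterial lipoproteins, was 127 and 70.7 in pDCs, 275 and 289 in CD8α cDCs, 298 and 339.6 in CD11b cDCs and 74.8, 33.1 and 37.8 in B lymphocytes, against 23.7 and 24.8 in NK cells and 26.4 and 39.2 in CD8 T lymphocytes. B lymphocyte values overlapped those of the cytotoxic arrays. No Toll-like receptor was in the shared set, and Tlr1, Hsp90b1 and Irf7 were the members that did not pass the test. Tlr4, Tlr8 and Tlr9 were not among the genes tested, and Irak4 was not analysed here.

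Signalling proteins of the B cell receptor and of other ITAM-bearing receptors were mostly higher on the mean of the antigen-presenting populations. Of 20 tested members, 18 were higher in the antigen-presenting populations, 1 was lower and 1 did not pass (median 1.89). Beside them, 28.9% of all genes were higher and 27.8% lower. Btk, Pirb, Siglecg and Prkcd were shared by all 4 populations. Btk, the Tec family kinase of the B cell receptor pathway, was 359 and 232 in pDCs, 672 and 599 in CD8α cDCs, 440.3 and 551 in CD11b cDCs and 985, 1029.8 and 1433 in B lymphocytes, against below 20 on all 4 cytotoxic arrays. B lymphocytes were highest, and the lowest DC array lay at 232. Siglecg, an inhibitory sialic acid receptor, was 317 and 296 in pDCs, 100.0 and 118 in CD8α cDCs, 834 and 842 in CD11b cDCs and 1377, 669.9 and 903 in B lymphocytes, against below 20 on all 4 cytotoxic arrays. Pirb, an inhibitory receptor for MHC class I, ran the other way among the antigen-presenting cells, with 1082 ± 86 in CD11b cDCs and 117 ± 28 in B lymphocytes, and it was below 20 on the cytotoxic arrays (at least 23-fold).

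Other members were higher on average but were low in some of the 4 populations or present in NK cells. Blnk, the adaptor that links Syk to Btk, was below 20 on all 4 arrays of CD8α cDCs and CD11b cDCs, 1551 and 1374 in pDCs and 1849, 1173 and 1231 in B lymphocytes, against below 20 on all 4 cytotoxic arrays. It divided pDCs and B lymphocytes from both cDC subsets, which were as low as the cytotoxic cells. Plcg2, the phospholipase of this pathway, was 1751 and 1767 in pDCs, 2058 and 1828 in CD8α cDCs, 2086 and 1872 in CD11b cDCs and 2157, 1485 and 1872 in B lymphocytes, against 1385 and 1354 in NK cells and 92.9 and 57 in CD8 T lymphocytes. NK cell arrays lay just below the lowest B lymphocyte array, and CD8 T lymphocytes stood apart from all others. Rasgrp3, a Ras activator, was at least 886 on the cDC and B lymphocyte arrays but 21.5 and 34.9 in pDCs. Clnk, a relative of Blnk, was lower in the antigen-presenting populations on average (-1.42, SE 0.14, adjusted p = 7.85e-06), with 159.8 and 237 in CD8α cDCs, against 569 and 366 in NK cells, and below 20 on both arrays of CD8 T lymphocytes.

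Transcription factors known from the myeloid and B lineages were higher in 19 of 23 tested cases, lower in 0, and did not pass in 4 (median 1.75). The shares over all genes were 28.9% higher and 27.8% lower. Bcl11a, Spi1 and Irf5 were shared by all antigen-presenting populations. Bcl11a, a zinc finger factor required for B cell and pDC development, was 1557 and 1381 in pDCs, 446 and 552 in CD8α cDCs, 651 and 888 in CD11b cDCs and 1054, 464 and 651 in B lymphocytes, against below 20 on all 4 cytotoxic arrays. pDCs were highest, and the antigen-presenting arrays spread 3.49-fold among themselves. Spi1 (PU.1), the Ets family factor of myeloid and B cell development, was 261 and 164 in pDCs, 776 and 784 in CD8α cDCs, 873 and 988 in CD11b cDCs and 217, 169.7 and 161 in B lymphocytes, against 11.4 and 29.5 in NK cells and 21.7 and 24.2 in CD8 T lymphocytes. The cDC arrays, at 776 or more, lay apart from those of pDCs and B lymphocytes, at 261 or less. Lmo2, a LIM domain bridging factor outside the list, was 1032 and 1089.7 in pDCs, 365 and 378 in CD8α cDCs, 940.3 and 1067 in CD11b cDCs and 1309.9, 247 and 300.0 in B lymphocytes, against 2.05 and 29.5 in NK cells and 34 and 12.3 in CD8 T lymphocytes, and B lymphocyte replicate 1 again stood above replicates 2 and 3.

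Other factors of this list were low in 1 of the 4 populations. Spib, a close relative of Spi1, was 3259 ± 72.6 in pDCs, 515 ± 26.4 in CD11b cDCs and 2729.8 ± 708 in B lymphocytes, but 36.4 ± 16.4 in CD8α cDCs, against 26.6 ± 5.9 in NK cells and 19.9 ± 4.98 in CD8 T lymphocytes. Irf4, a factor of B cell activation and CD11b cDCs, had the same gap at CD8α cDCs, with 9.24 and 33.1. Mef2c, which B cells need for survival and proliferation, was 1261 and 1283 in pDCs, 199 and 238 in CD8α cDCs, 618 and 718 in CD11b cDCs and 2046, 2539 and 2954 in B lymphocytes, against 303 and 276 in NK cells and below 20 on both arrays of CD8 T lymphocytes. Both NK cell arrays lay above those of CD8α cDCs, and only CD8 T lymphocytes were below every antigen-presenting array.

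Of 24 costimulatory ligands and receptors tested, 11 were higher in the antigen-presenting populations, 7 were lower and 6 did not pass (median 0.22), where 28.9% of all genes were higher and 27.8% lower. The higher ones included Cd40, Cd83 and Cd24a, all shared by the 4 populations. Cd40, the receptor through which T cell help reaches antigen-presenting cells, was 195 and 179 in pDCs, 532 and 533 in CD8α cDCs, 958 and 979 in CD11b cDCs and 1271, 942 and 862 in B lymphocytes, against below 20 on all 4 cytotoxic arrays. Signals were lowest in pDCs, intermediate in CD8α cDCs and overlapping in CD11b cDCs and B lymphocytes, and the difference was at least 27.9-fold. Cd83, which protects MHC class II from Marchf1, was also lowest in pDCs, with 149 and 119, and was at least 3909 on the other antigen-presenting arrays, against 40.3 and 57.8 in NK cells and 43.1 and 29.1 in CD8 T lymphocytes. On the other side, Cd27, Cd28, Cd96, Crtam and Tnfrsf9 were shared by both cytotoxic populations. Cd27, the receptor of the ligand Cd70, was below 20 on all 9 antigen-presenting arrays, against 467 and 403 in NK cells and 413 and 459 in CD8 T lymphocytes, and the cytotoxic populations were not called apart (NK cells minus CD8 T lymphocytes -0.01, SE 0.15, adjusted p = 1).

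Of 25 cytokine receptors tested, 11 were higher, 10 were lower and 4 were not called (median 0.14), beside the same shares over all genes. Csf2rb, the common beta chain of the GM-CSF, IL-3 and IL-5 receptors, was the 1 shared antigen-presenting member, with 2202 and 2086 in pDCs, 1269 and 1165 in CD8α cDCs, 1385 and 1356 in CD11b cDCs and 183, 47.7 and 89.5 in B lymphocytes, against 5.36 and 31.1 in NK cells and below 20 on both arrays of CD8 T lymphocytes. Replicate 2 of the B lymphocytes, the lowest antigen-presenting array, was 1.54-fold above the highest cytotoxic array. Il18r1, Il18rap, Il2rb and Il12rb1 were shared by both cytotoxic populations. Il18r1, the ligand-binding chain of the IL-18 receptor, was below 20 on all 4 arrays of pDCs and CD8α cDCs, 11.3 and 20.6 in CD11b cDCs and 7.34, 26.9 and 53.1 in B lymphocytes, against 4577 and 3527 in NK cells and 874 and 1103 in CD8 T lymphocytes. NK cells exceeded CD8 T lymphocytes (2.03, SE 0.36, adjusted p = 0.00141), and B lymphocyte replicates 2 and 3 were the only antigen-presenting arrays besides a single CD11b cDC array above 20. Il18rap, its accessory chain, differed by -5.01, and Il2rb, the beta chain shared by the IL-2 and IL-15 receptors, was at least 27.9-fold lower.

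Among the phagocyte oxidase genes 4 of 6 were higher, 1 was lower and 1 did not pass (median 0.78). For all genes tested the shares were 28.9% higher and 27.8% lower. Ncf1, the organising subunit p47phox, was shared, at 2537 ± 65.4 in pDCs, 1206 ± 60.2 in CD8α cDCs, 1536 ± 0.382 in CD11b cDCs and 1503 ± 185 in B lymphocytes, against 71.3 ± 13.8 in NK cells and 277 ± 35.1 in CD8 T lymphocytes. Cybb, the catalytic subunit, was at least 1050.4 in pDCs, CD11b cDCs and B lymphocytes but was 42.5 and 60.2 in CD8α cDCs, against 28.9 and 3.97 in NK cells and 32.9 and 19.2 in CD8 T lymphocytes. Rac2, the GTPase that activates the complex, was lower in the antigen-presenting populations (-0.95, SE 0.25, adjusted p = 0.00737), with overlapping arrays. Fc receptors were higher in 8 of 9 tested genes, with Fcgr3 the exception (-2.21, SE 0.18, adjusted p = 1.94e-06), but 0 of them were shared by all antigen-presenting populations.

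Within the 124 shared antigen-presenting genes, B lymphocytes were usually the lowest population. They held the lowest of the 4 means in 66 genes, pDCs in 25, CD8α cDCs in 19 and CD11b cDCs in 14, and the highest mean was that of pDCs in 44, CD8α cDCs in 34, CD11b cDCs in 33 and B lymphocytes in 13. By limma, B lymphocytes were lower than the mean of the 3 DC populations in 74 of the 124 genes (59.7%), higher in 14 (11.3%) and not called in 36, and the median difference was -0.60. Over all genes tested, B lymphocytes were lower in 29.3% and higher in 26.5%. The largest such difference among the genes given above was that of Csf2rb (B lymphocytes minus DCs -4.05, SE 0.33, adjusted p = 2.47e-06), followed by Mpeg1 (-3.92) and Pld4 (-3.70). Among the 14 genes higher in B lymphocytes were Cd24a (1.82, SE 0.36, adjusted p = 0.00153), Siglecg (1.63), Cd83 (1.63), Btk (1.34) and Cd40 (1.14). Bcl11a (-0.27, SE 0.22, adjusted p = 0.339) and Ly86 (-0.43, SE 0.25, adjusted p = 0.162) were not called between B lymphocytes and DCs.

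**Figure D2:**
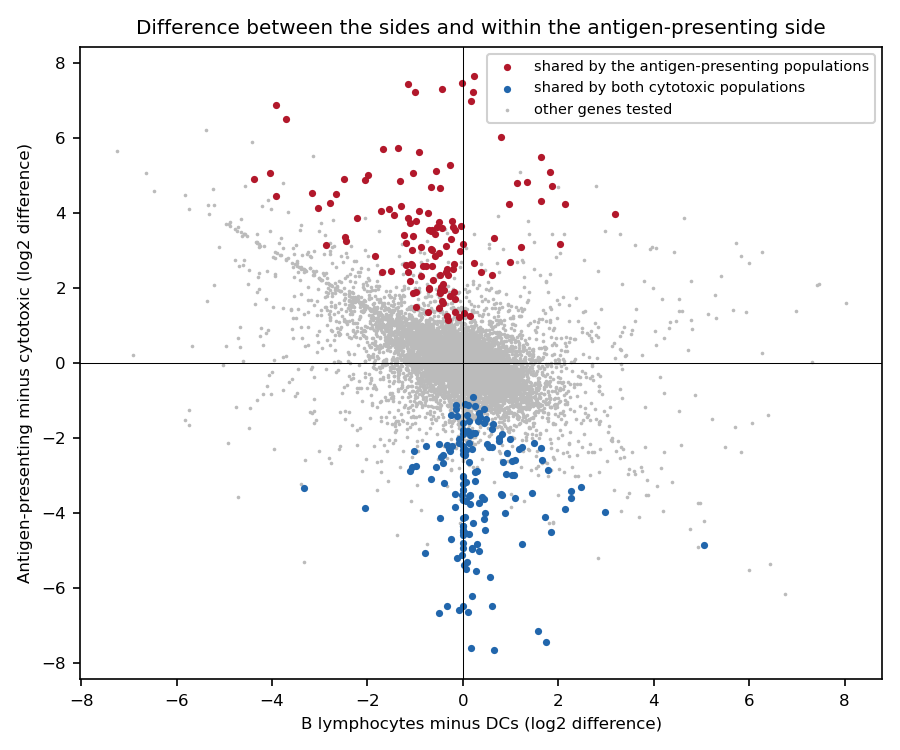
Each point is 1 of the 9391 genes tested, with the log2 difference of B lymphocytes minus DCs on the horizontal axis and that of antigen-presenting minus cytotoxic populations on the vertical axis. Most red points, the 124 shared antigen-presenting genes, lie left of 0 (median -0.60), and most blue points, the 147 shared cytotoxic genes, lie close to 0 (median 0.13). Both axes share the arrays of the antigen-presenting populations.

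With the floor of 20, Nkg7, a granule membrane protein, had the widest gap (6.50) of the 147 genes shared by both cytotoxic populations. Its signal was 5.79 and 25.7 in pDCs, below 20 on both arrays of CD8α cDCs and 8.27 and 22.8 in CD11b cDCs. It was 43.1, 32.7 and 26.4 in B lymphocytes, against 7811 and 7707 in NK cells and 2913 and 3137 in CD8 T lymphocytes. The mean of NK cells was 2.56-fold that of CD8 T lymphocytes, and the highest antigen-presenting array was a B lymphocyte array at 43.1. The log2 difference was -7.67. Prkcq, the protein kinase C theta of T cell activation, was below 20 on all 6 arrays of DCs and 3.41, 3.6 and 25.3 in B lymphocytes, against 2187 and 2642 in NK cells and 1738 and 1729.8 in CD8 T lymphocytes. Its gap of 6.32 was a lower bound, with 8 antigen-presenting arrays below 20, so the order of Nkg7 and Prkcq is not fixed. F2r, the thrombin receptor PAR1, was 42.9 and 11.7 in pDCs, 29.1 and 23.3 in CD8α cDCs, below 20 on both arrays of CD11b cDCs and 32.5, 15.1 and 18.4 in B lymphocytes, against 2305 and 1899 in NK cells and 2828 and 2458 in CD8 T lymphocytes, and NK cells and CD8 T lymphocytes did not differ beyond their spread (-0.33, SE 0.34, adjusted p = 0.488). Ms4a4b, a membrane protein of T cells, was 27.9 and 39.4 in pDCs, 18.3 and 20.5 in CD8α cDCs, 83 and 87.2 in CD11b cDCs and 133, 98 and 162 in B lymphocytes, against 11746 and 10371 in NK cells and 7254 and 7802 in CD8 T lymphocytes. Btbd11, an ankyrin repeat and BTB domain protein, differed by -5.49 (log2), with a single antigen-presenting array above 20.

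Of 24 genes of cytotoxic granules and effector molecules, 17 were lower in the antigen-presenting populations, 5 were higher and 2 did not pass (median -2.84). Both cytotoxic populations shared 10 of them, against 1.57% of all genes, of which 27.8% were lower and 28.9% higher. Gzma, the tryptase granzyme A, was 16.7 and 29.9 in pDCs, below 20 on both arrays of CD8α cDCs, 64.7 and 1.82 in CD11b cDCs and 31.5, 11.6 and 40.2 in B lymphocytes, against 18718 and 18346 in NK cells and 2303 and 954 in CD8 T lymphocytes. NK cells exceeded CD8 T lymphocytes by 3.64 (log2), but the lowest CD8 T lymphocyte array was still 14.8-fold above the highest antigen-presenting array. Gzmb, which cleaves caspases in target cells, was 3280.3 and 2871 in NK cells and 317 and 172 in CD8 T lymphocytes, and Prf1, the pore-forming perforin, was 2914 and 3178 in NK cells and 384 and 510.5 in CD8 T lymphocytes. Both followed the order of Gzma between the cytotoxic populations. Ctsw, a cathepsin of cytotoxic cells, was 206 and 158 in pDCs, below 20 on both arrays of CD8α cDCs, 38 and 13.2 in CD11b cDCs and 59.6, 23.3 and 24.8 in B lymphocytes, against 7785 and 8085 in NK cells and 2185 and 2543 in CD8 T lymphocytes. pDCs were the highest antigen-presenting population for this gene.

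The 5 members called against the rest of this list were Tnf, Lyst, Stxbp2, Srgn and Lamp1. Tnf was 281 and 211 in pDCs, 315 and 255 in CD8α cDCs, 664 and 532 in CD11b cDCs and 52.5, 38.2 and 2.74 in B lymphocytes, against 34.5 and 51.2 in NK cells and 5.13 and 46.4 in CD8 T lymphocytes. The lowest DC array was at 211, whereas B lymphocytes overlapped the cytotoxic arrays. Lyst, Stxbp2 and Lamp1, proteins of lysosome traffic, and Srgn, the core protein of granule proteoglycans, differed by 1.17, 0.66, 0.33 and 0.44. These directions did not all hold without DCs or CD8 T lymphocytes: Lamp1 was -0.13 against NK cells alone and -0.42 between B lymphocytes and NK cells of 1 scan day, Stxbp2 was -0.06 on that day, and Tnf was -0.3 in the scan period that held both sides. Ccl5, a chemokine stored by cytotoxic cells, was lower on average (-5.32, SE 0.29, adjusted p = 8.38e-08), but CD11b cDCs reached 2764 and 2775, against 12576 and 12443 in NK cells and 5020.0 and 4238 in CD8 T lymphocytes.

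Of 26 kinases and adaptors of T cell receptor signalling, 23 were lower in the antigen-presenting populations, 1 was higher and 2 did not pass (median -2.24). Beside these, 27.8% of all genes were lower and 28.9% higher. The 9 kinases and adaptors shared by both cytotoxic populations were Prkcq, Skap1, Cd247, Lat, Zap70, Sh2d1a, Txk, Sh2d2a and Ubash3a. Zap70, the kinase that binds ITAM motifs, was below 20 on all 9 antigen-presenting arrays, against 445 and 614 in NK cells and 454 and 429 in CD8 T lymphocytes. Cd247, the zeta chain that carries such motifs in T cells and NK cells, was 552 and 793 in NK cells and 887 and 1099.5 in CD8 T lymphocytes. Sh2d1a (SAP), the adaptor of SLAM family receptors, was 396 and 573 in NK cells and 407 and 463 in CD8 T lymphocytes. For Zap70 and Sh2d1a NK cells and CD8 T lymphocytes were not called apart (0.24, SE 0.17, adjusted p = 0.289 for Zap70 and 0.13 for Sh2d1a). Lat, the membrane scaffold, met the definition with a wide range inside the cytotoxic side, at 312 and 317 in NK cells and 1797 and 2342 in CD8 T lymphocytes.

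Some T cell genes were above the floor in NK cells, at lower levels than in CD8 T lymphocytes. Cd3d was 121 and 158 in NK cells and 2752 and 3281 in CD8 T lymphocytes, and Cd3g was 75.9 and 102 in NK cells and 2657 and 2470.4 in CD8 T lymphocytes. Both were in the shared set, and their highest antigen-presenting arrays were at 29.8 and 52.7. The NK cell means of Cd3d and Cd3g were 4.63 and 3.47% of the CD8 T lymphocyte means. Other members of the T cell marker list reached higher shares, with Lat at 15.2, Lef1 at 13.3 and Camk4 at 7.25%. Bcl11b stood at 4.68 and Cd3e at 3.72%. Cd8a, Cd8b1, Cd5 and Cd6, also members of the T cell marker list, were below 20 on both NK cell arrays. Of these, Cd8a is not restricted to T cells, because CD8α was a sort marker of the CD8α cDCs. In CD8 T lymphocytes the NK cell receptor Ncr1 was below 20 on both arrays, while Gzma stood at 8.79 and Tbx21 at 14.4% of the NK cell mean.

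Within the cytotoxic set NK cells were higher than CD8 T lymphocytes in 44 of 147 genes (29.9%), lower in 27 (18.4%) and not called in 76. Over all genes tested the shares were 21.5% higher and 16.6% lower in NK cells, 3583 genes in all, and 2368 without CD8 T lymphocyte replicate 1. Eomes, a T-box factor of NK and memory CD8 T cells, was below 20 on all 9 antigen-presenting arrays, against 4086 and 3742 in NK cells and 913 and 733 in CD8 T lymphocytes. Its mean in NK cells was 4.75-fold that in CD8 T lymphocytes (2.26, SE 0.15, adjusted p = 1.69e-06). Thy1, a surface glycoprotein of T cells, ran the other way (-0.92, SE 0.22, adjusted p = 0.00757), as did Bcl11b (-4.44), a zinc finger factor of T cell commitment. S1pr5, which guides NK cells out of lymphoid organs, was 2726 and 2725 in NK cells and 165 and 98.8 in CD8 T lymphocytes, and Klra7, an Ly49 receptor, was 1004 and 1092 in NK cells and 49.9 and 74.9 in CD8 T lymphocytes. Both genes were in the shared set, with means 20.7-fold and 16.8-fold higher in NK cells. Klra7 was measured by 1 probe set, and whether its signal is specific to this Ly49 gene was not tested.

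Factors of the T and NK lineages were lower in the antigen-presenting populations in 23 of 26 tested genes, higher in 0, and 3 did not pass (median -2.24). The shares over all genes were 27.8% lower and 28.9% higher. Of these factors, 3 were shared by both cytotoxic populations: Eomes, Bcl11b and Gata3. Tbx21 (T-bet), which acts with Eomes, was not in the set, with 273 and 264 in CD11b cDCs, against 3357 and 2884 in NK cells and 480.4 and 418 in CD8 T lymphocytes. Killer cell lectin-like receptors and their adaptors were lower in 11 of 12 tested genes (median -3.39). Klrg1 and Klrc1 were shared, with 1425 and 1755 in NK cells and 245 and 159.9 in CD8 T lymphocytes for Klrg1 and 1202 and 1469 in NK cells and 418 and 191 in CD8 T lymphocytes for Klrc1. Klrd1 (CD94), the partner chain of Klrc1, was 2561 and 2746 in pDCs, 149 and 282 in CD8α cDCs, 2339 and 2135 in CD11b cDCs and 84.2, 33.5 and 23.9 in B lymphocytes, against 9390.0 and 7907 in NK cells and 3966 and 3452 in CD8 T lymphocytes. pDCs and CD11b cDCs were thus well above B lymphocytes and CD8α cDCs. The highest of their arrays, at 2746, lay below the lowest of CD8 T lymphocytes, at 3452.

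**Figure D3:**
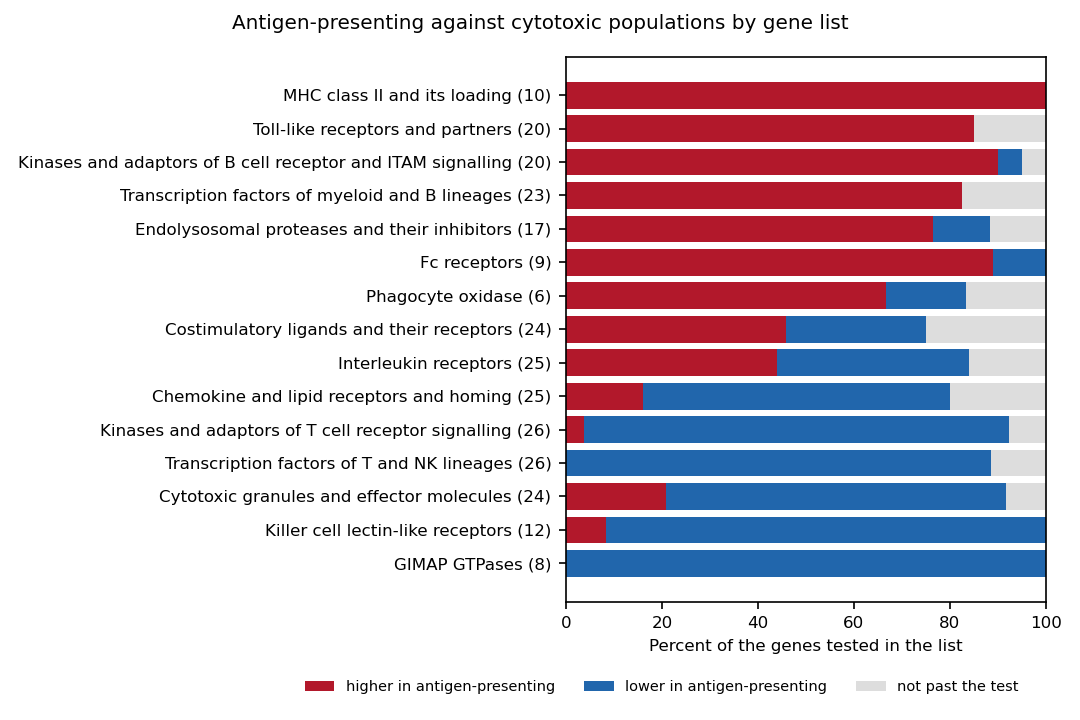
Share of the tested genes of each list that were higher (red) or lower (blue) in the antigen-presenting populations or did not pass limma's test (grey), with the number tested in parentheses and lists ordered by their median difference. Over all 9391 genes 28.9% were higher and 27.8% lower. Toll-like receptors and factors of myeloid and B lineages have no blue part, and GIMAP GTPases and factors of T and NK lineages no red part.

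A number of genes with large mean differences were not shared, and in these B lymphocytes lay near the cytotoxic lymphocytes. All 8 GIMAP GTPases, a family that supports lymphocyte survival, were lower in the antigen-presenting populations (median -4.29). Gimap3 alone met the definition of the shared set. Among all genes tested, 27.8% were lower and 1.57% were shared by both cytotoxic populations. Gimap4 was 38.9 and 53.9 in pDCs, below 20 on both arrays of CD8α cDCs, 42.6 and 34.5 in CD11b cDCs and 4996, 2681 and 3272 in B lymphocytes, against 10882 and 10661 in NK cells and 5385 and 5318 in CD8 T lymphocytes. DC arrays reached 53.9 at most and no lymphocyte array was below 2681, so that the log2 difference of -6.17 between the sides rested on DCs (B lymphocytes minus DCs 6.75, SE 0.19, adjusted p = 7.69e-10). Cd2, an adhesion receptor, was below 20 on all 6 arrays of DCs and 1839, 1063 and 1076 in B lymphocytes, against 2434 and 3638 in NK cells and 2073 and 2459.8 in CD8 T lymphocytes. Ets1, a factor of B, T and NK cells, was 288 and 482 in pDCs, below 20 on both arrays of CD8α cDCs, 25.4 and 2.22 in CD11b cDCs and 1289, 1888 and 1924 in B lymphocytes, against 702 and 801 in NK cells and 4022 and 3838 in CD8 T lymphocytes, and its B lymphocyte arrays were above the NK cell arrays. Ablim1, an actin-binding LIM protein chosen after its values were seen, was below 20 on all 4 arrays of CD8α cDCs and CD11b cDCs, 301 and 373 in pDCs and 1628, 1649.7 and 1827 in B lymphocytes, against 2339 and 2043 in NK cells and 2547 and 2267 in CD8 T lymphocytes, with pDCs between the cDCs and the lymphocytes.

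Chemokine and lipid receptors and integrins were higher in 4 of 25, lower in 16 and not called in 5 (median -0.66). Of all genes tested, 28.9% were higher and 27.8% lower. S1pr5 was the 1 member in the cytotoxic set, and 0 were in the antigen-presenting set.

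Tyrobp (DAP12), the ITAM adaptor of many activating receptors, divided both sides. Its signal was 7833 and 6758 in pDCs, 2965 and 3366 in CD8α cDCs, 5822 and 5417 in CD11b cDCs and 335, 61.1 and 124 in B lymphocytes, against 8649 and 8727 in NK cells and 37.2 and 12.8 in CD8 T lymphocytes. DCs and NK cells were high, and B lymphocytes and CD8 T lymphocytes were low. The log2 difference between the sides was 2.07, SE 0.36, adjusted p = 0.00055, that of B lymphocytes minus DCs was -5.21, SE 0.42, adjusted p = 2.22e-06, and that of NK cells minus CD8 T lymphocytes was 8.31, SE 0.59, adjusted p = 2.35e-06, all by limma.

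**Figure D4:**
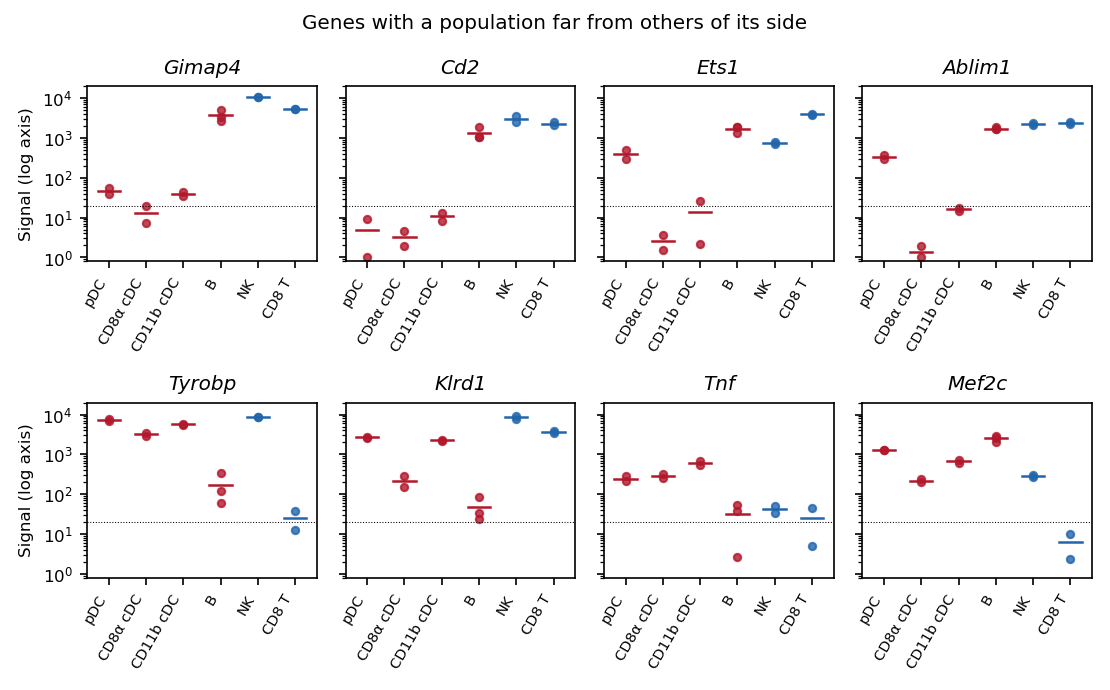
Signal (log axis, values below 1 drawn at 1) of 8 genes for which at least 1 population lay far from others of its side, with 1 point per array and a line at the mean. Red marks antigen-presenting and blue cytotoxic populations, and the dotted line is the floor of 20. B lymphocytes lie with NK cells and CD8 T lymphocytes for Gimap4, Cd2, Ets1 and Ablim1, and NK cells lie with DCs for Tyrobp.

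Several enzymes that break down kynurenine, a product of tryptophan, were divided between the sides within 1 pathway. These genes and the paralogues after them were chosen after their values were seen. Kmo, the monooxygenase that makes 3-hydroxykynurenine, was 2368 and 3918 in pDCs, 786 and 847 in CD8α cDCs, 972 and 1292 in CD11b cDCs and 547, 345 and 449 in B lymphocytes, against below 20 on all 4 cytotoxic arrays. Kynu, the hydrolase that cleaves it, was 518 and 444 in pDCs, 193 and 156 in CD8α cDCs, 416 and 381 in CD11b cDCs and 197, 124 and 134 in B lymphocytes, against below 20 on all 4 cytotoxic arrays. Haao, the dioxygenase of the next step, was 680.0 and 595 in pDCs, 427 and 452 in CD8α cDCs, 528 and 409 in CD11b cDCs and 1069, 651 and 653 in B lymphocytes, against 84 and 123 in NK cells and 73.2 and 193 in CD8 T lymphocytes. All 3 were shared by the antigen-presenting populations, Kmo and Kynu with cytotoxic arrays below 20 and Haao with cytotoxic arrays between 73.2 and 193. For Kynu another probe set differed by only 0.92 (log2), against 3.73 for the probe set used. Qprt, which turns the product of this branch towards NAD, was below 20 on all 5 arrays of CD8α cDCs and B lymphocytes, 26.2 and 20.5 in pDCs and 20.8 and 13.3 in CD11b cDCs, against 102 and 122 in NK cells and 53.6 and 78.7 in CD8 T lymphocytes, and belonged to the set shared by both cytotoxic populations. Kyat3, an aminotransferase of kynurenine, was higher in the antigen-presenting populations on average (0.95, SE 0.26, adjusted p = 0.0101) but was in neither set. Afmid, looked up with these genes, was lower on average by limma (-0.92, SE 0.18, adjusted p = 0.00147) and was in neither set. Its signal was 255 and 288 in NK cells but 46.4 and 69.4 in CD8 T lymphocytes, against 99.1, 115 and 167 in B lymphocytes. Levels of different genes were not compared, because each probe set has its own scale.

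In several gene families 1 member was shared by the antigen-presenting populations and another by the cytotoxic ones. Bcl11a was shared by the antigen-presenting populations, as given above. Its paralogue Bcl11b, shared by the cytotoxic ones, was below 20 on all 6 arrays of DCs and 32.6, 1.83 and 22.7 in B lymphocytes, against 155 and 107 in NK cells and 2883 and 2705 in CD8 T lymphocytes. Among protein kinase C isoforms, Prkcd was shared by the antigen-presenting populations (2.43), and Prkcq (-6.64) and Prkch (-3.33) by the cytotoxic ones. The other isoforms looked up, Prkca (-1.73), Prkcb (0.22), Prkce (0.36), Prkci (0.83) and Prkcz (-0.47), were in neither set. Prkcd was 1772 and 1699 in pDCs, 678 and 578 in CD8α cDCs, 975 and 1047 in CD11b cDCs and 914, 749 and 779.9 in B lymphocytes, against 232 and 334 in NK cells and 103 and 134 in CD8 T lymphocytes. Prkch was 97.4 and 103 in pDCs, 279 and 281 in CD8α cDCs, 464 and 519 in CD11b cDCs and 34.6, 15 and 19.4 in B lymphocytes, against 1305 and 1389.8 in NK cells and 1399.7 and 1314 in CD8 T lymphocytes, so that cDCs carried it at 279 to 519.

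Hexokinases divided in the same way. Hk2 was 181 and 164 in pDCs, 586 and 597 in CD8α cDCs, 701 and 659.6 in CD11b cDCs and 93.1, 143 and 110.2 in B lymphocytes, against 29.7 and 39.4 in NK cells and 48.8 and 48.8 in CD8 T lymphocytes. Hk1 was 232 and 188 in pDCs, 106 and 90.6 in CD8α cDCs, 144 and 164 in CD11b cDCs and 188, 195 and 169 in B lymphocytes, against 491 and 379.9 in NK cells and 496 and 460.1 in CD8 T lymphocytes. The groups did not overlap for either gene, and the log2 differences were 2.86 and -1.55. Hk3 was 708 ± 16.8 in CD8α cDCs and at most 94.8 ± 20.6 elsewhere, the value in NK cells. Themis2, an adaptor of B cells and macrophages, was shared by the antigen-presenting populations, with 1188 and 839 in pDCs, 1270.1 and 1081 in CD8α cDCs, 2169 and 2211 in CD11b cDCs and 583, 463 and 649 in B lymphocytes, against 61.3 and 51.4 in NK cells and 67.5 and 58.4 in CD8 T lymphocytes. Its relative Themis, which acts in T cell receptor signalling, was 793 and 705 in CD8 T lymphocytes and below 20 on both NK cell arrays, so that it was no shared cytotoxic gene.

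**Figure D5:**
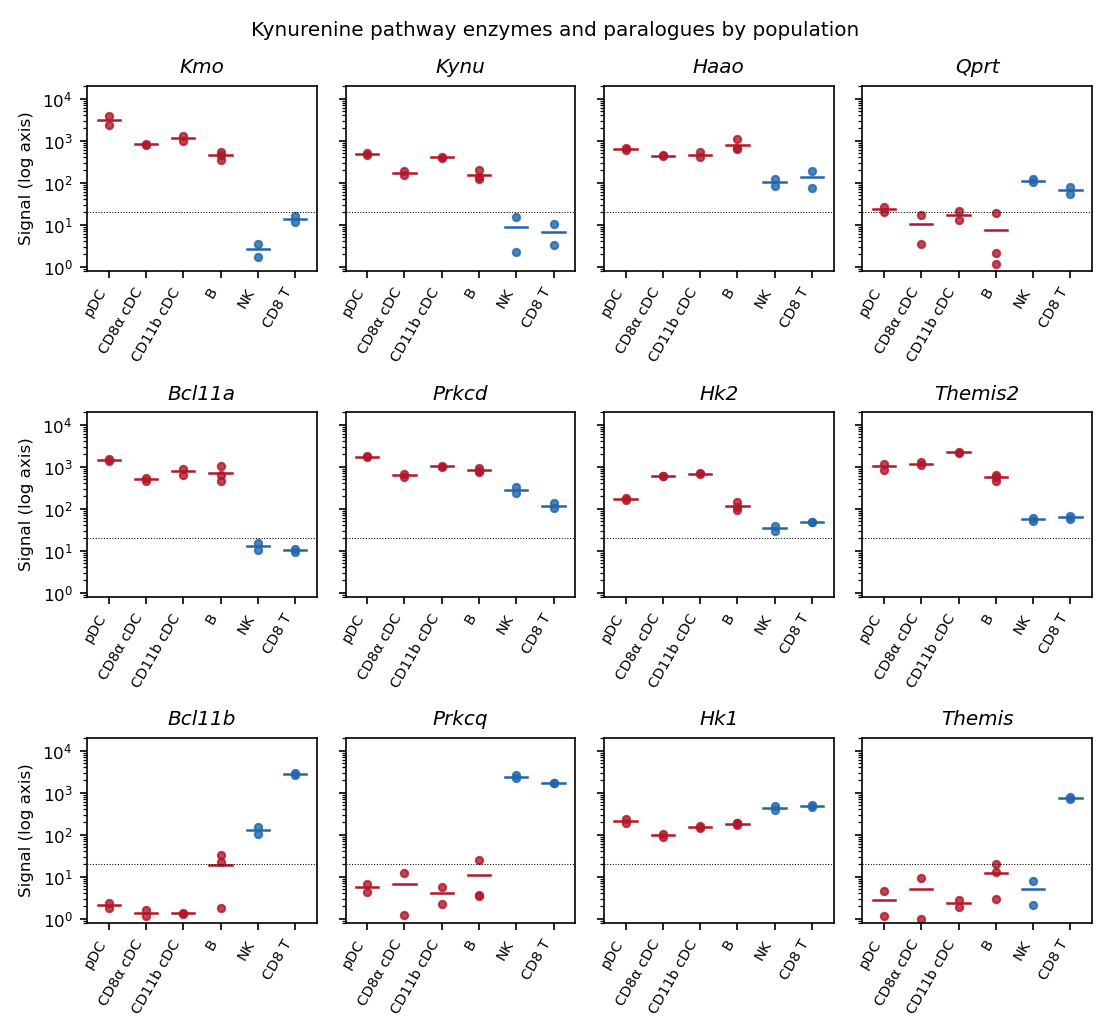
Signal (log axis, values below 1 drawn at 1) by population for 4 kynurenine pathway enzymes (top) and for 4 pairs of paralogues (middle and bottom), with 1 point per array and a line at the mean. Red marks antigen-presenting and blue cytotoxic populations, and the dotted line is the floor of 20. Kmo, Kynu and Haao are higher in the antigen-presenting populations and Qprt is lower, and each gene of the middle row runs opposite to its paralogue below it, except that Themis is also below 20 in NK cells.

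What the shared sets held beyond these lists was mostly scattered. Of the 124 shared antigen-presenting genes 31 were in any of the 15 functional lists, and of the 147 cytotoxic ones 38. A probe set other than the one used was available for 50 and 57 genes, and in 1 of each, Eif1ad and Ppp1r12a, another probe set ran the opposite way. Sizes could differ widely where the direction held. Cd247 differed by -5.32 with the probe set used and by only -0.77 with another. These values were -5.49 and -1.80 for Btbd11, -4.83 and -1.97 for Bcl11b and -1.55 and -0.64 for Hk1. In other genes the sizes were close, as in Cd28 (-4.13 and -4.15). The list of antigen-presenting cell genes that the study drew up on these samples had 15 tested members, all higher and 13 in the shared set. Over all genes these shares were 28.9% and 1.32%. Because the study chose its list on these samples, this is no independent evidence of their direction.

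Promoters of 91 of the 116 shared antigen-presenting genes beyond MHC class II and of 115 of the 147 cytotoxic genes were in the RefSeq table, with 114 and 161 start sites. The 250 bases before each start were searched on both strands, and shares are given for the antigen-presenting set, the cytotoxic set and all 32851 start sites of the table. GAGGAAGT, the purine-rich form bound by PU.1, was in 6.14, 3.11 and 2.44%, and CAGGAAGT, an Ets core with a different first base, was in 2.63, 5.59 and 2.69%. The RUNX form TGCGGT was in 11.4, 6.21 and 5.1%, and TGTGGTTT was in 0, 1.86 and 1.49%. The T-box form TCACACCT was in 1.75, 1.24 and 1.12%, the Y box GATTGGC in 7.02, 5.59 and 6.33%, the interferon-stimulated form GAAANNGAA in 6.14, 4.35 and 7.13%, and the NF-kappaB form GGGANTTCC in 1.75, 1.86 and 1.43%. Start sites of 1 gene overlap, and these shares were not tested.

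The scan days allowed 1 comparison between the sides within a day, of B lymphocyte replicates 1 and 2 with both NK cell arrays. It was chosen after seeing the data. All 124 shared antigen-presenting genes kept their direction there and 83 passed limma's test, and of the 147 cytotoxic genes all kept it and 106 passed, whereas 411 of 9391 genes were called higher and 605 lower. The B lymphocyte and NK cell arrays had part in choosing the sets, so the kept direction is no independent check. Ly86 differed by 7.23, SE 0.50, adjusted p = 0.0177 and Nkg7 by -7.69, SE 0.19, adjusted p = 0.00624 between these arrays, and Pld4 did not pass (4.12, SE 1.22, adjusted p = 0.139). For DCs and for CD8 T lymphocytes the population and the scan period cannot be told apart. Sex, as read from Xist, likewise cannot be told apart from the difference between DCs and cytotoxic populations.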

How the data were processed

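RNA of sorted splenic cells was hybridised to 13 Affymetrix Mouse Genome 430 2.0 arrays. The deposited values were MAS5 intensities, which the authors scaled to a target of 100 on each array; they were linear, with no floor and no normalization between arrays. The chip records deposited per array gave RNA amounts, chip lots and scan days and held no expression values. The software version was not given in the sources used here.

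The annotation named 1 gene for 34958 of the 45101 probe sets (34754 matched by gene ID), several for 932 and no gene for 9211. Intensities below 20 were set to 20 and log2 transformed. Probe sets had to reach 50 in all replicates of at least 1 population (18207, of which 15650 with 1 gene), and the probe set of highest mean stood for its gene, which left 9391 genes. A limma model (limma 3.58.1, R 4.3.3) of 6 population means with 7 residual and 3.55 prior degrees of freedom gave all contrasts, with Benjamini-Hochberg adjustment over all genes at 0.05. It gave each population equal weight. The shared sets used the largest one-sided p of the 8 pairwise contrasts, adjusted over all genes, together with the margin of 0.4. The script was tested on simulated data. Replicates were separate sorts for DCs and NK cells; where nothing says that arrays were separate preparations, p-values measure only the spread between them. The number of arrays limits the precision.

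Genes were named by rule: the markers Cd74, Ly86, Wdfy4 and Nkg7, the 15 widest gaps of each set, the 10 largest differences each way and, in each list, up to 6 largest differences and members called against their list. Members and lists were chosen with earlier results of these data known. Kynurenine enzymes, paralogues of other genes, Ablim1 and Xist were added after their values were seen, as was the count of B lymphocyte array 1 above its replicates. Promoters came from RefSeq (GRCm38.p6) by symbol and gene ID. Python 3.11.15 with pandas 2.3.3 and matplotlib 3.10.9 drew the figures.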

Additional observations from a re-analysis of the deposited data

Results flagged for a closer look

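Tyrobp ran opposite ways within both sides. B lymphocytes minus DCs differed by -5.21 and NK cells minus CD8 T lymphocytes by 8.31 on the log2 scale, each past limma's test, so that DCs and B lymphocytes lay on opposite sides of the cytotoxic mean by at least 1, as NK cells and CD8 T lymphocytes did around the antigen-presenting mean. Hk3 differed by -2.20 between B lymphocytes and DCs by the same test, with the mean of DCs above and B lymphocytes below the cytotoxic mean. The mean of DCs was carried by CD8α cDCs, at 708 ± 16.8, and pDCs were below 20 on both arrays.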

How the results depend on the processing

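Each count was recomputed under up to 15 other settings and without each array in turn. Quantile normalization, a floor of 50, either other filter, the probe set of largest variance, a robust fit with trend, array weights and scan day as a random block (correlation -0.059) kept every count within 1.5 times. Without a floor the cytotoxic set had 43 genes, against 147, and all 43 were among the 147. A model of 2 groups that ignores populations called 525 genes higher and 672 lower. Arrays of the scan period with both sides, 3 of B lymphocytes and 2 of NK cells, called 971 higher and 1265 lower, and the 4 arrays of 1 scan day 411 and 605, with fewer arrays. The shared sets have no value under these 3 settings. Set against NK cells alone the antigen-presenting and cytotoxic sets had 268 and 596 genes, and against CD8 T lymphocytes alone 323 and 478, where fewer contrasts had to pass. Leaving out 1 array gave 2298 to 2924 genes higher, 2193 to 2859 lower, 82 to 151 shared by antigen-presenting and 115 to 173 shared by cytotoxic populations. It gave 4383 to 5633 between B lymphocytes and DCs and 2368 to 4251 between NK cells and CD8 T lymphocytes, and without CD8 T lymphocyte replicate 1 the counts were 82 and 2368.

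The replicate numbers were not taken as pairs: over 15 pairs of populations, the correlation of their deviations ran from -0.199 to 0.184 and exceeded 0.1 in 4. DC and NK cell duplicates were separate sorts, and whether equal numbers mark the same sort is not given in the sources used here. With the replicate block 2637 genes were higher and 2528 lower, and the sets had 111 and 124 genes. Same-numbered B lymphocytes and DCs, and NK cells and CD8 T lymphocytes, gave 4384 and 3465 genes in this replicate block.

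Of 100 named genes under 28 settings, 2698 values kept direction and call, 79 kept direction and lost the call and 22 changed direction, in 10 genes. The cause was not tested beyond the populations left out. The probe set of largest variance gave Ctse 1.97, and no floor gave Hk3 -0.89. Against NK cells alone Hk3 was -0.58, Lamp1 -0.13, Themis 0 and Tyrobp -2.08, and against CD8 T lymphocytes alone Clnk was 0.83 and Fcgr3 0.06. In the scan period with both sides Ctse was 0.61, Ets1 1.16, Hk3 -2.23, Lamp1 -0.37, Stxbp2 -0.11, Themis 0, Tnf -0.3 and Tyrobp -5.99. On the 1 scan day Ctse was 0.47, Ets1 1.06, Hk3 -2.23, Lamp1 -0.42, Stxbp2 -0.06 and Tyrobp -5.92.

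Signal over background limits the low end: per array 49.1 to 58.3% of signals were below 20, where values have no order and folds are lower bounds.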
